A study of Mus musculus with 2 samples.

Results

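The serotonin receptor genes described here are Htr1a, Htr1b, Htr2a, Htr2c, Htr3a, Htr4, Htr5a and Htr7, which are 8 of the 19057 genes named on the arrays. The members were chosen by symbol alone, as every probe whose single gene symbol in the platform annotation was on this list, which gave 13 probes. Hippocampal RNA of male ICR mice, an outbred stock, was hybridised to 2 bead arrays of Illumina. Mice of the CeCl3 array received cerium chloride (a lanthanide salt) by mouth daily for 90 days, and those of the control array were given purified water. The label of the treated sample gives doses of 0.5, 1 and 2 mg per kg of body weight together, so which of them, or which mixture, that array represents is unknown, and the sources used here do not give the number of mice behind each array. Both samples are labelled with an age of 4 weeks, which cannot be the age at the end of 90 days of dosing. The study asked how cerium chloride affects learning, memory and hippocampal gene expression.

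Serotonin is made by neurons of the brainstem raphe nuclei, whose axons reach the hippocampus, and it acts there through a family of receptors. Most are G protein-coupled. The Htr1 and Htr5 receptors couple to Gi and lower cyclic AMP, the Htr2 receptors couple to Gq and phospholipase C, and Htr4, Htr6 and Htr7 couple to Gs and raise cyclic AMP. Htr3a differs from the rest in being a subunit of a cation channel that serotonin opens directly. In the hippocampus Htr1a is known from pyramidal and granule neurons, Htr3a from a class of GABA interneurons, and Htr2c, outside the hippocampus proper, from the choroid plexus.

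With a single array in each group (1 against 1), no difference below has a replicate check and no test or p-value across samples is given. Intervals are 95% intervals from the standard error over the beads of a probe (28 to 58 beads per array for the receptor probes), and they cover bead error within an array only. A probe was called detected at a detection p under 0.01 against the array's negative controls, which held for 38.5% of 45281 probes on the CeCl3 array, against 36.3% on the control array. Each group had a BeadChip of its own, and the effects of BeadChip and group cannot be told apart. The arrays also went against their labels in 1 respect. Of the 4 probes of Xist, the RNA that silences an X chromosome in female cells, 0 were detected on the CeCl3 array, against 4 on the control array, yet the label of each sample says male. Its brightest probe had a signal of -7.40 on the CeCl3 array, against 834 on the control array, and Eif2s3y, a Y-linked gene, had 54.4 on the CeCl3 array, where it was detected, and 20.1 on the control array, where it was not. Eif2s3y lay near the lowest signal detected on the CeCl3 array (45.9) and below that of the control array (57.9), so no fold is given. Of the other Y-linked genes listed, Kdm5d and Uty were detected on neither array, and Ddx3y had no named probe. The part of sex in the differences below was not tested.

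Some markers of hippocampal neurons were detected on both arrays. Of the genes with a named probe, 5 of 7 CA1 markers, 5 of 9 CA3 and CA2 markers and 2 of 6 dentate granule markers (C1ql2 and Prox1) were detected on both arrays. Over all named genes, 9473 of 19057 were detected on both arrays, so these counts alone do not identify the tissue. Glis3 of the dentate list was detected on the CeCl3 array alone, and Lct, Npnt and Tdo2 on neither. The Prox1 probe of dentate granule neurons had a log2 signal of 8.84 on the CeCl3 array, against 8.77 on the control array. Markers of tissue outside the hippocampus were detected on both arrays too, namely 17 of 19 choroid plexus genes, 8 of 11 thalamic and hypothalamic genes and 6 of 8 raphe genes. In RNA of whole tissue, fewer cells of a type and less RNA per cell cannot be told apart.

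To show the DNA at the start of the receptors, the 250 bases before the RefSeq start site (build GRCm38.p6) are given for Htr1a and Htr1b, which were detected on both arrays, and for Htr2a, which was detected on neither. Capitals mark matches, on either strand, to a GC box (GGGCGG) or a CCAAT box (CCAAT).
Htr1a, chr13:105443443-105443692, plus strand: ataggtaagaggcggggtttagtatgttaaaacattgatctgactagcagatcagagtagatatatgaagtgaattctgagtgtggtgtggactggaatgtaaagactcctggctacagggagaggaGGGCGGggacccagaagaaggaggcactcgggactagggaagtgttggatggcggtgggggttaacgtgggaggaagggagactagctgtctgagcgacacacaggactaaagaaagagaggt
Htr1b, chr9:81633833-81634082, minus strand: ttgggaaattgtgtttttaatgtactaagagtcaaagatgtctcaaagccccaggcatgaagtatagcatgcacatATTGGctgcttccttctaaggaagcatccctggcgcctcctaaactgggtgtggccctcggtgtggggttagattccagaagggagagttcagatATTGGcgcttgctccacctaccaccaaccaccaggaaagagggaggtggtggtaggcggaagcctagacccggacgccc
Htr2a, chr14:74640624-74640873, plus strand: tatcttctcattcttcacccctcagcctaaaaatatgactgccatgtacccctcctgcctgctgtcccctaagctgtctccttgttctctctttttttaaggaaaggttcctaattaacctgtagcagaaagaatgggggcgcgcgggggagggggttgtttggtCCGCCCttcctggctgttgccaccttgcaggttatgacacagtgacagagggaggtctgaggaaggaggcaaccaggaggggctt

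The table of promoters matched 6 of the 8 receptors. Htr1a had 1 GC box and no CCAAT box in this window, Htr1b had 2 CCAAT boxes and no GC box, and Htr2a had 1 GC box. Over all 32851 promoter windows of this length, 32.7% held a GC box and 33.8% a CCAAT box. None of these 3 windows held a TATA box (TATAAA, in 12.4% of all windows), a cAMP response element (TGACGTCA, 1.55%) or an AP-1 site (TGANTCA, 6.75%). The share of G and C was 50.4% for Htr1a and 52.4% for Htr1b, against 52.8% for Htr2a, 55.6% for Htr2c, 62.0% for Htr5a and 82.0% for Htr7, all of which were undetected. These matches describe the letters only.

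Of the 8 receptor genes, 3 were detected on both arrays (Htr1a, Htr1b and Htr3a), 1 on the CeCl3 array alone (Htr4) and 4 on neither (Htr2a, Htr2c, Htr5a and Htr7). Over all named genes, 54.7% were detected on at least 1 array. The 3 receptors detected on both arrays had lower values on the CeCl3 array after normalization, as had 57.7% of the 9473 named genes detected on both, except that in the authors' second deposited table, the series matrix, taken as deposited, Htr1b (0.27) and Htr3a (0.05) had positive log2 differences. None of their bead intervals after normalization lay wholly below 0, as 13.9% of those genes did, or above 0, as 8.59% did. The plot of signals by probe shows how few of the 13 probes stood clear of background.

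**Figure D1:**
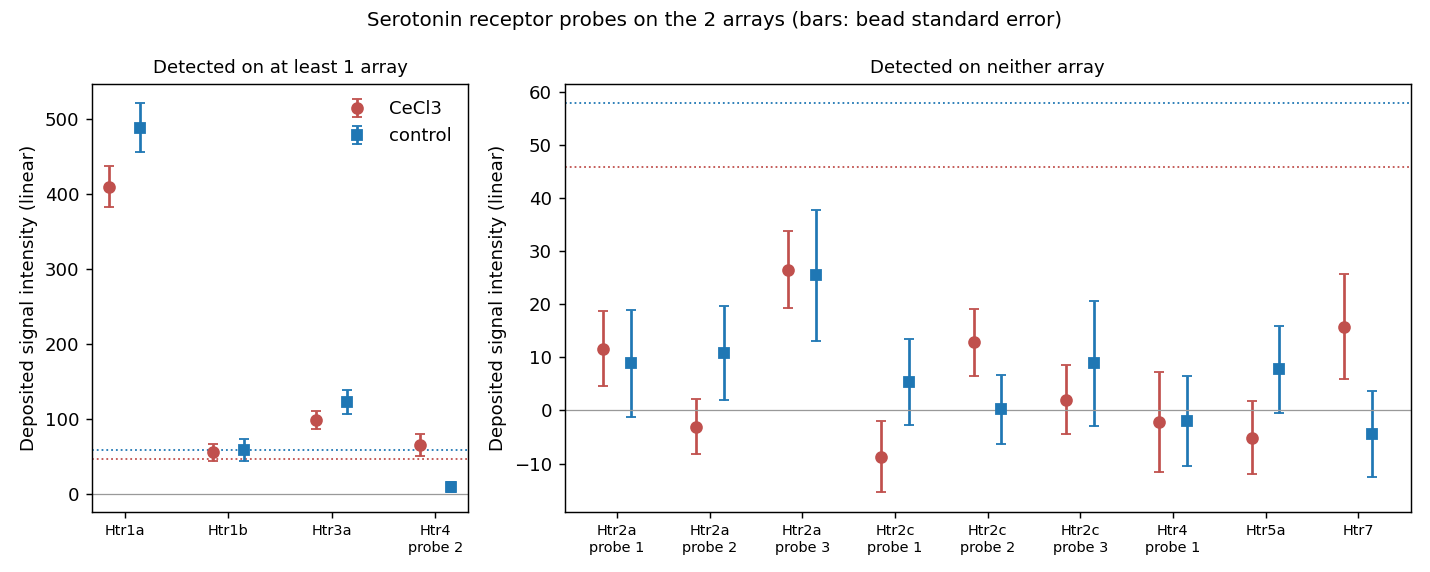
Deposited signal intensity (linear scale, background subtracted) of each of the 13 receptor probes on the CeCl3 array (red circles) and the control array (blue squares), with bars of 1 bead standard error and dotted lines at the lowest signal detected on each array (45.9 on the CeCl3 array, against 57.9 on the control array). Htr1a stands well above these lines on both arrays, Htr1b lies close to them, and 9 probes lie below them on both arrays.

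Htr1a is the Gi-coupled receptor that opens inward rectifier potassium channels in hippocampal neurons. Its probe had a deposited signal of 409 ± 27.3 on the CeCl3 array, against 488 ± 32.5 on the control array (± bead SE, 42 and 45 beads). The CeCl3 value was the lower, with a difference in signal of -78.9 (-162 to 4.39) that did not clear bead error. On the log2 scale, after background correction and normalization, the difference (CeCl3 minus control) was -0.25 (-0.51 to 0.01). Of the named genes detected on both arrays, 21.1% had a more negative difference than Htr1a.

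Htr1b, the Gi-coupled receptor of axon terminals, lay at the edge of detection. Its signal was 55.2 ± 12.0 on the CeCl3 array, against 58.5 ± 14.9 on the control array, with a detection p of 0.00855 on each. The 2 values were almost equal, and the log2 difference of -0.07 had the widest bead interval of the 3 receptors on both arrays (-0.84 to 0.71). The signal of Htr1b therefore bounds its difference only within that range.

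Htr5a, the other Gi-coupled member, was not detected. Its probe had a signal of -5.14 ± 6.88 on the CeCl3 array, against 7.75 ± 8.21 on the control array, with detection p of 0.699 and 0.306. Signals below 0 arise where the subtracted background exceeds the brightness of the probe.

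Htr3a, the channel subunit, had a signal of 98.7 ± 11.8 on the CeCl3 array, against 123 ± 16.4 on the control array (40 and 58 beads). It was detected on both arrays at a detection p of 0, and its log2 difference was -0.28 (-0.73 to 0.17). Htr3a lay further from 0 than Htr1a, but with a wider interval. Of the genes detected on both arrays, 17.8% had a more negative difference. Genes of the interneurons that carry this receptor had a median log2 difference of -0.09 (0.0077 in the series matrix as deposited). Of 10 detected members 8 were lower, as were 57.7% of all named genes on both arrays, and none had a bead interval clear of 0. The neuropeptide gene Tac2 had the lowest value among them (-0.48, -0.96 to 0.01), followed by the cannabinoid receptor gene Cnr1 (-0.34, -0.72 to 0.04). The highest values were those of Prox1 (0.06, -0.20 to 0.33) and Reln (0.0030, -0.20 to 0.21). Lamp5, the brightest, lay at -0.03 (-0.24 to 0.19). Prox1 is also on the dentate list and Lamp5 on the neocortical list, so the median is not of these interneurons alone. The part of the interneurons in the Htr3a value was not tested.

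The Gq-coupled members gave no usable signal. Htr2a, the receptor at which classical hallucinogens act, had 3 probes, and their signals were 11.6, -3.11 and 26.5 on the CeCl3 array, against 8.86, 10.9 and 25.4 on the control array. The brightest of these had a detection p of 0.0438 on the CeCl3 array, against 0.0844 on the control array, so it fell outside the threshold of 0.01 on both. Htr2c, whose transcript is recoded by A-to-I RNA editing, also had 3 probes, of which 2 were designed on cDNA clones and not on RefSeq transcripts. Their signals lay between -8.70 and 12.8 on the CeCl3 array and between 0.18 and 8.86 on the control array. For all 6 probes the bead interval of the difference in signal held 0, so no difference was detectable at this signal. The choroid plexus, where Htr2c is known to be abundant, was represented on both arrays. The signals of the 17 detected choroid plexus markers summed to 25430 on the CeCl3 array, against 25171 on the control array, and Ttr (transthyretin), which this epithelium secretes, had a log2 difference of 0.09 (-0.18 to 0.37). Most of that sum came from Ttr (13096 on the CeCl3 array, against 12463) and Igf2 (6502, against 6128). Of these markers 13 were lower, as were 57.7% of all named genes on both arrays. The list's median was -0.21 (0.08 in the series matrix as deposited). The bead interval lay below 0 for 5 of the 17 and above 0 for none, against 13.9% and 8.59% of the named genes on both arrays.

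Htr4 and Htr7 are the Gs-coupled members. Htr4 was detected on the CeCl3 array alone, by 1 of its 2 probes. That probe had a signal of 65.1 ± 14.4 on the CeCl3 array, with a detection p of 0.00641, and 8.69 ± 6.58 on the control array, with a detection p of 0.278. The difference in signal was 56.4 (25.3 to 87.5), given as a description because this probe passed the filter only through the array where it is high. Because the control value was not well above background, the fold is given as a bound, the CeCl3 signal over the lowest signal detected on the control array, and Htr4 was at least 1.10-fold higher. The other Htr4 probe was at background on both arrays, at -2.12 ± 9.43 on the CeCl3 array, against -2.02 ± 8.50 on the control array. The 2 probes, designed on the same RefSeq transcript, thus gave different results. Detection on the CeCl3 array alone was seen for 5.9% of all named genes with a detected probe. No size beyond the bound is given for Htr4, and no receptor on both arrays was past 2-fold. Of all named genes with a detected probe, 4.72% were past 2-fold in either direction, 2.77% higher and 1.95% lower on the CeCl3 array, with measured values of dim probes included.

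Htr7 had a signal of 15.8 ± 9.84 on the CeCl3 array, against -4.38 ± 8.05 on the control array. Neither passed detection (detection p of 0.112 and 0.696), and the bead interval of the difference in signal ran from -4.79 to 45.1.

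**Figure D2:**
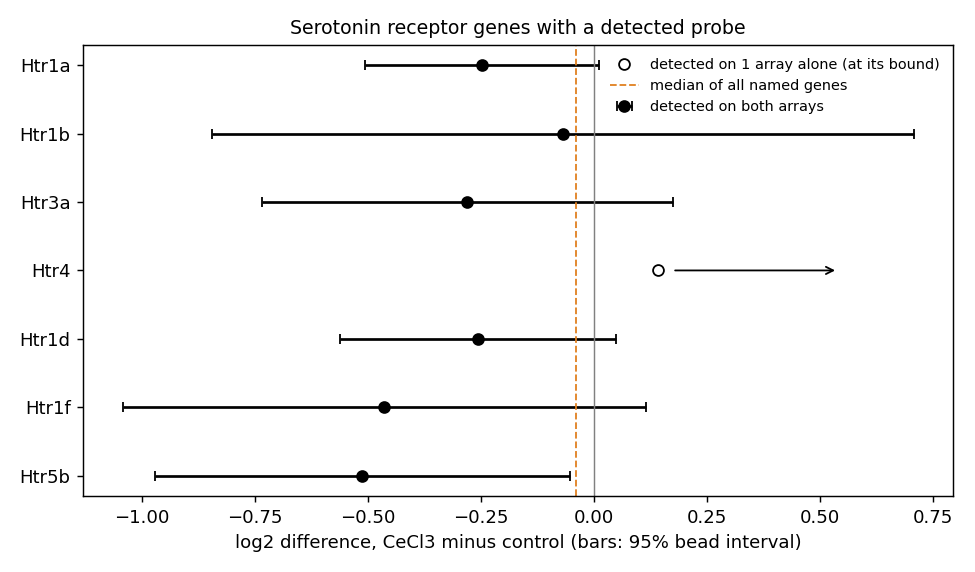
Log2 difference (CeCl3 minus control) of the 7 serotonin receptor genes with a detected probe, with 95% bead intervals for filled points. Filled points were detected on both arrays, the open point with an arrow (Htr4) on the CeCl3 array alone and stands at its lower bound, and the dashed line is the median of all named genes (-0.04). The 6 filled points lie below 0 (3 of 6 in the series matrix as deposited), and the interval of Htr5b alone lies wholly below 0.

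The 6 further serotonin receptor genes with a probe were looked at in the same way. Htr1d and Htr1f, which couple to Gi, and Htr5b were detected on both arrays, while Htr2b, Htr3b and Htr6 were detected on neither. Htr1d had a signal of 215 ± 16.7 on the CeCl3 array, against 259 ± 21.4 on the control array, a log2 difference of -0.26 (-0.56 to 0.05). Htr1f had 79.1 ± 12.1 on the CeCl3 array, against 114 ± 19.7 on the control array (-0.46, -1.04 to 0.11). Htr5b, a receptor that is functional in rodents and lost in humans, had 118 ± 11.7 on the CeCl3 array, against 173 ± 25.0 on the control array. Its log2 difference of -0.51 (-0.97 to -0.05) was the only one among the receptors on both arrays to clear bead error.

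All 6 serotonin receptor genes detected on both arrays (3 of the 8 and 3 of the further 6) thus had a negative difference, under the main processing and each alternative except the series matrix taken as deposited. Of all named genes on both arrays 57.7% did, and the median of the 6 was -0.27, against -0.05 for those genes. Changing only the detection filter, or averaging detected probes, returned the same values for these 6, so those alternatives are no further check. The changes of offset and scaling acted on deposited values whose quantiles were already near-equal. The series matrix ranks probes identically, so the same steps on it could return only similar values. These alternatives are therefore a weak check of the direction. Each of the 6 values rests on a single detected probe. Named genes with 2 probes on both arrays numbered 3114. Between their 2 brightest probes the median gap was 0.23 log2, and 56.7% had the same direction. With no quantile normalization, or a median shift in its place, 5 of the 6 lay below the median of all genes. In the series matrix as deposited, with no further normalization between arrays, the median of all named genes was 0.18, and 3 of the 6 lay below 0 (Htr1a, Htr1f and Htr5b) and 5 below the median of all genes, with Htr1b above it. The median of the 3 further receptors was -0.46, and it was -0.14 in the series matrix as deposited and -0.10 with no filter on dim probes.

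Genes of serotonin synthesis, transport and breakdown were detected in 9 of the 13 cases with a named probe, and 7 of the 9 (4 in the series matrix as deposited) had lower values on the CeCl3 array, with a median log2 difference of -0.20. That median was 0.01 in the series matrix as deposited and -0.06 with no filter on dim probes. All 9 were detected on both arrays, and 57.7% of the named genes on both arrays lay below 0. The bead interval lay below 0 for 2 of the 9, and for 13.9% of the named genes on both arrays. Slc6a4, the serotonin transporter that takes serotonin back into the neuron, had a signal of 275 ± 25.9 on the CeCl3 array, against 401 ± 32.0 on the control array, a log2 difference of -0.52 (-0.86 to -0.19). Maob, the monoamine oxidase of astrocytes and serotonin neurons, had 788 ± 53.9 on the CeCl3 array, against 1081 ± 79.6 on the control array (-0.45, -0.73 to -0.17). These 2 genes gave the largest differences of the list.

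Tph2, the rate-limiting enzyme of serotonin synthesis in the brain, had a signal of 455 ± 37.7 on the CeCl3 array, against 525 ± 42.0 on the control array, a log2 difference of -0.20 (-0.52 to 0.12). Ddc, which converts 5-hydroxytryptophan to serotonin, lay at -0.22 (-0.45 to 0.0018) and at -0.08 on its other probe. Genes that make or recycle tetrahydrobiopterin, the cofactor of tryptophan hydroxylase, went both ways, with Qdpr at -0.33 (-0.72 to 0.05), Pts at -0.10 (-0.40 to 0.20), Spr at 0.06 (-0.31 to 0.43) and Gch1 at 0.06 (-0.47 to 0.60). The aldehyde dehydrogenase gene Aldh2 lay at -0.04 (-0.24 to 0.16). Tph1, Maoa, Slc18a2, the vesicular monoamine transporter, and Aanat were not detected on either array.

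**Figure D3:**
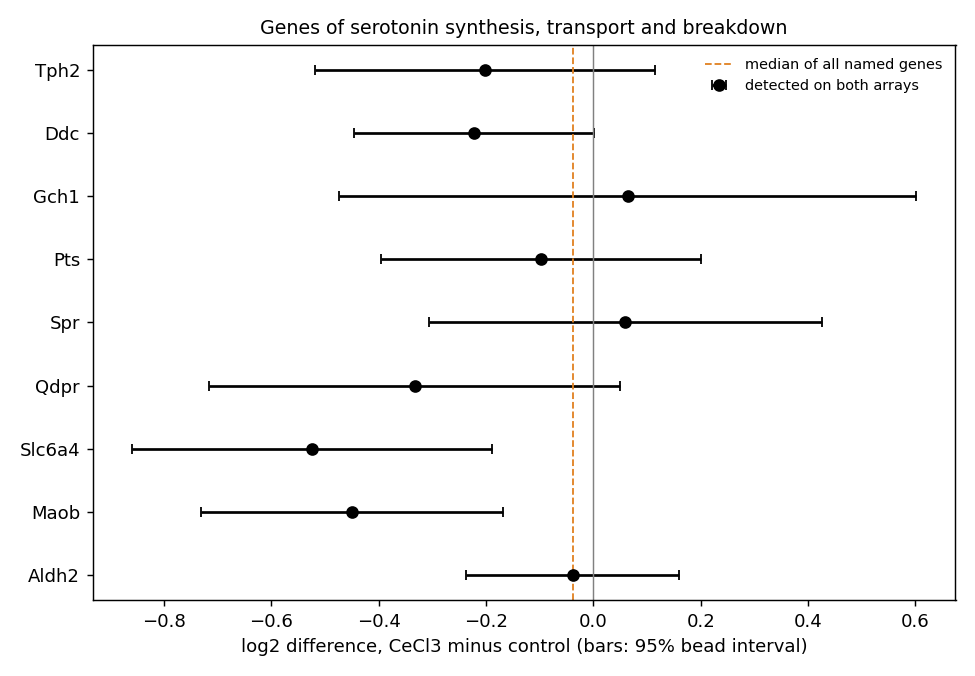
Log2 difference (CeCl3 minus control) of the 9 detected genes of serotonin synthesis, transport and breakdown, with 95% bead intervals and a dashed line at the median of all named genes (-0.04). The intervals of Slc6a4 and Maob lie below 0, and those of the other 7 genes hold 0.

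Tph2 and Slc6a4 are transcribed in the cell bodies of raphe neurons, and both were detected on both arrays of hippocampal RNA. Among other genes of the raphe list, the midbrain and hindbrain factor genes En1 and En2 and the factor genes Gata2 and Gata3 were detected on both arrays, while Lmx1b and Slc18a2 were not detected. Their differences had no common direction. En1 lay at 0.27 (-0.05 to 0.60), Gata2 at 0.24 (-0.11 to 0.59), En2 at -0.18 (-0.45 to 0.09) and Gata3 at -0.28 (-1.08 to 0.51). The signals of the 6 detected raphe genes summed to 2969 on the CeCl3 array, against 3224 on the control array, and the part of brainstem RNA in the Tph2 and Slc6a4 values was not tested.

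Signalling genes downstream of the receptors are given by pathway. Of the Gq and phospholipase C genes, the route of Htr2a and Htr2c, 10 of 11 detected members were higher on the CeCl3 array, as were 42.2% of all named genes on both arrays, with a median log2 difference of 0.30. Among the higher ones were Rgs2, which limits Gq signalling (0.53, -0.11 to 1.17), Plcb3, a phospholipase C (0.39, -0.05 to 0.82), and Prkcb, a protein kinase C and the brightest of the list (0.07, -0.21 to 0.35). The exception was Plcb4, a dim probe with a signal of 53.6 ± 12.4 on the CeCl3 array, against 128 ± 28.5 on the control array (-1.09, -1.87 to -0.30). The bead interval lay above 0 for 3 of the 11 genes, and for 8.59% of the named genes on both arrays. The 3, named here after their values were seen, were the G protein gene Gnaq (0.35, 0.13 to 0.58), the inositol trisphosphate receptor gene Itpr2 (0.38, 0.06 to 0.70) and the diacylglycerol kinase gene Dgkz (0.30, 0.0005 to 0.59). The other Dgkz probes detected on both arrays lay at 0.18 (-0.13 to 0.48) and 0.03 (-0.26 to 0.32), with intervals that held 0. The Gnaq probe used was designed on a cDNA clone. A RefSeq probe of Gnaq passed detection on the CeCl3 array only, with a signal of 676 ± 64.2 there and 38.5 ± 9.76 on the control array, at least 9.79-fold higher. This value is a description, because the probe passed the filter only through the array where it is high. These Gnaq probes disagreed in size, at 0.35 log2 and at least 3.29 log2.

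The median of the Gq list was positive under each alternative, from 0.15 with no filter on dim probes and 0.18 when the probes of a gene were averaged to 0.46 in the series matrix as deposited. General neuronal markers lay on the same side, with a median of 0.21. Of 6 detected members 5 were higher, against 42.2% of all named genes on both arrays. The highest were Map2 (0.39, -0.07 to 0.85) and Rbfox3 (0.22, 0.05 to 0.40). Syt1, the brightest and the only one below 0, lay at -0.0029 (-0.16 to 0.15), and Snap25 was not detected. The summed signal of the 6 detected markers was 70701 on the CeCl3 array, against 64760 on the control array. The part of neuronal content in the Gq list was not tested.

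Gi and adenylyl cyclase genes, the route of Htr1a and Htr1b, had a median of -0.03 (0.12 in the series matrix as deposited). Of 16 detected members 7 were higher and 9 lower, against 42.2% and 57.7% of all named genes on both arrays. The ends of this list lay far apart. Kcnj9, a subunit of the inward rectifier channel that Htr1a opens, had a signal of 237 ± 22.9 on the CeCl3 array, against 111 ± 20.5 on the control array (1.02, 0.48 to 1.55). Kcnj3, another subunit of that channel, lay the other way, with 166 ± 14.0 on the CeCl3 array, against 248 ± 23.4 on the control array (-0.55, -0.89 to -0.21), and is named after its value was seen. Kcnj9 was the only detected gene of the list past 2-fold, a size reached by 0.982% of the named genes on both arrays in either direction. Adcy8, a calcium-stimulated adenylyl cyclase, had 368 ± 34.0 on the CeCl3 array, against 614 ± 60.5 on the control array (-0.72, -1.09 to -0.35). Gng2, a G protein gamma subunit, lay at -0.71 (-0.94 to -0.48), Gnb1, a beta subunit, at 0.18 (-0.14 to 0.50) and Rgs4, the brightest, at -0.14 (-0.34 to 0.06).

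Gs and protein kinase A genes, the route of Htr4 and Htr7, had a median of -0.10 (0.03 in the series matrix as deposited). Of 13 detected members 5 were higher and 8 lower, against 42.2% and 57.7% of all named genes on both arrays. Gnal, a Gs-like alpha subunit, had the lowest value (-0.71, -1.23 to -0.19), followed by the transcription factor gene Creb1 (-0.35, -0.66 to -0.05). Prkar1a, a regulatory subunit of protein kinase A, had the highest (0.40, 0.12 to 0.68), followed by the phosphodiesterase gene Pde4b (0.29, -0.06 to 0.63), and the catalytic subunit gene Prkacb, the brightest, lay at -0.01 (-0.19 to 0.17).

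Of the proteins that bind serotonin receptors or help place them, 10 genes were detected, of which 7 were lower, as were 55.8% of all named genes. Their median was -0.16, or -0.09 for the 9 on both arrays and 0.02 in the series matrix as deposited. Cav1, the caveolin that holds receptors in membrane caveolae, had a signal of 170 ± 17.7 on the CeCl3 array, against 311 ± 50.8 on the control array (-0.83, -1.35 to -0.31). Ywhae, a 14-3-3 protein, passed detection only on the control array, as 3.15% of named genes with a detected probe did. Its signal was 26.6 ± 5.80 on the CeCl3 array, against 68.0 ± 18.1 on the control array, near the lowest signal detected there (57.9). The bound for Ywhae was 1.38-fold lower with CeCl3, which leaves out bead error. This probe passed the filter only through the array where it is high. Arrb2, a beta-arrestin (0.17, -0.08 to 0.43), and Dlg4, the postsynaptic scaffold PSD-95 (0.17, -0.14 to 0.48), had the highest values, and Ric3, a chaperone of Htr3a, lay at -0.09 (-0.34 to 0.16) on its brightest probe. Its other probes detected on both arrays disagreed, at 0.63 (0.27 to 0.98) and -0.26 (-0.70 to 0.19). S100a10, or p11, which binds Htr1b and Htr4, was not detected on either array. Of the editing enzymes that recode Htr2c, Adar lay at -0.17 (-0.40 to 0.05) on its brightest probe and between -0.75 and 0.14 on the other 3 probes detected on both arrays, Adarb1 lay at -0.01 (-0.21 to 0.20), and Adarb2 was not detected.

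**Figure D4:**
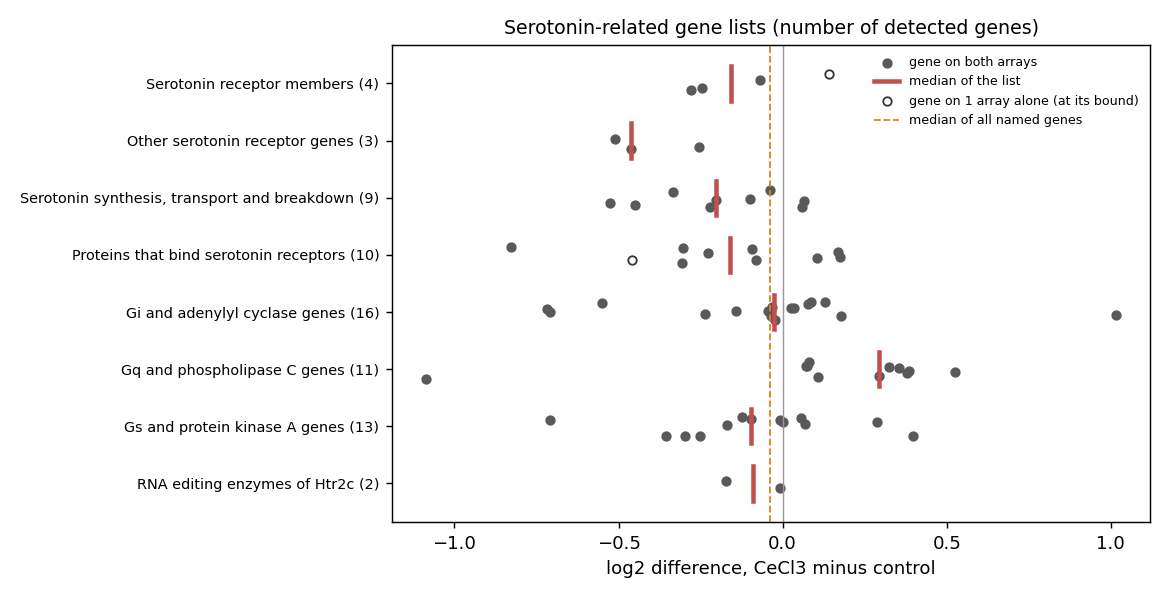
Log2 difference (CeCl3 minus control) of each detected gene in 8 groups of serotonin-related genes, with the number of detected genes beside each name. Red bars are the medians, open points are genes detected on 1 array alone, drawn at their bounds, and the dashed line is the median of all named genes (-0.04). The 10 higher genes of the Gq list lie to the right of 0, while the receptor genes other than Htr4 lie to the left, which holds for 3 of these 6 in the series matrix as deposited.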

How the data were processed

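Signals were measured on 1 array per group, and groups were taken from the labels alone. The deposited table gives, per the file headers, a mean intensity per probe, its standard error over beads, the bead number and a detection p-value. The submitters' processing notes name BeadStudio without a version or settings. The deposited intensity values are background-subtracted, with 27.1% below 0 on each array, and have near-equal quantiles (ratio 0.998 at the 75th percentile), so they appear normalized between arrays although the table is called non-normalized. The series matrix, also deposited as intensity values, ranks probes identically (Spearman correlation 1), with a ratio of 1.28 there and medians of 15.9 (CeCl3) and 14.2 (control). The steps behind either table, and so their exact scale, are unknown.

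Signals were corrected with normexp in limma 3.58.1 (R 4.3.3; controls inferred from detection p-values; offset 16, which pulls dim probes towards 0), quantile normalized and put on the log2 scale. The standard error of a log2 value was the bead standard error over the corrected signal. A gene was represented by its brightest probe detected on at least 1 array. Bounds use the lowest log2 signal detected on the other array (5.87 for CeCl3, 6.14 for control) and leave out bead error. The steps were tested on simulated data, made from the control array with 2-fold changes set in bright probes alone. Changes in probes as dim as those of Htr1b, Htr3a and Htr4 were not covered.

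Probes were named from the platform annotation (34885 with 1 symbol, 18 with several, 10378 unnamed here), and all 22 serotonin receptor probes matched RefSeq by gene number. Sequences are RefSeq's. Every member and all detected genes of the synthesis, other-receptor and editing lists were named, and of other lists the 2 highest, the 2 lowest and the brightest, as far as the report describes them. Of the 22 gene lists, those for other cell types not named above are given with the closing limits. The members and lists were chosen with earlier results of these data known.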

Additional observations from a re-analysis of the deposited data

How the results depend on the processing

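The medians of the gene lists depended on the scaling between arrays and on the filter. The median of the 4 detected serotonin receptor genes was -0.16, with 0.16 in the series matrix as deposited, -0.07 at a detection p under 0.05, -0.02 with no filter on dim probes and -0.25 for the 3 on both arrays. Setting Htr4 at its bound, an alternative chosen after seeing the data, could not move this median, since Htr4 stays the highest. The synthesis median was -0.20, with 0.01 in the series matrix as deposited and -0.06 with no filter, and the median of the other receptors was -0.46, with -0.14 and -0.10 there. In the series matrix as deposited, the number below 0 was 1 of the 4 detected serotonin receptor genes, against 3, and 4 of the 9 synthesis genes, against 7. There the median of all named genes was 0.18 and not -0.04, and the cause was not tested. Of the other values, 1248 stayed within bead error of the main value, which can include a change of sign, and 25 did not. Counts of named genes past 2-fold depended on the treatment of dim probes. The main counts were 289 higher and 203 lower. They were 70 and 37 with a normexp offset of 50, 46 and 47 for genes detected on both arrays, and the higher count was 676 in the series matrix as deposited and 185 in that matrix after the same steps. The lower count was 324 with an offset of 1, 318 with no normexp, 320 at a detection p under 0.05 and 325 with no filter. Higher genes made up 58.7% of those past 2-fold, and the alternatives gave 81.0% (matrix as deposited), 49.6% (detection p under 0.05), 49.5% (both arrays) and 49.2% (no filter). For probes near background, as for Htr1b and Htr4, the offset sets the fitted size, which is no bound, and the Htr4 log2 difference was 0.81 with an offset of 50 and 2.10 with an offset of 1. No paired analysis was possible because each group has 1 array. Median log2 differences of cell type lists were -0.21 for oligodendrocyte, -0.01 for astrocyte, -0.05 for microglial, -0.21 for endothelial and -0.14 for neocortical genes, 0.16 for other interneurons, -0.0027 for CA1, -0.21 for CA3 and CA2, 0.06 for dentate, -0.12 for thalamic and hypothalamic and -0.19 for raphe genes. In the series matrix as deposited they were -0.02 for oligodendrocyte, 0.25 for astrocyte, 0.20 for microglial, -0.05 for endothelial and 0.03 for neocortical genes. There, other interneurons had 0.23, CA1 0.17, CA3 and CA2 0.06, dentate 0.35, thalamic and hypothalamic 0.06 and raphe genes 0.01.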
